A study of Mus musculus with 41 samples.

Results

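The 39 genes described here are interferon-stimulated genes, that is, genes that cells switch on when type I interferon binds its receptor. They were taken by gene symbol from a given list that was drawn up with earlier results of these data known, and no measured value entered the rule. All 39 were found among the 19434 genes of the count table. The question was whether mouse regulatory T (Treg) cells that lose Uhrf1 show a type I interferon response. They were followed through 41 RNA-seq libraries in 8 groups.

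Type I interferons act on a receptor made of Ifnar1 and Ifnar2, whose kinases Jak1 and Tyk2 pass the signal on to transcription factors. The complex ISGF3, which holds Irf9 and Stat2, binds a DNA element of repeated GAAA letters in the promoters of its targets and raises sensors of viral RNA and DNA, antiviral effectors and the ubiquitin-like protein Isg15. Uhrf1 brings the maintenance methyltransferase to newly copied DNA, and in several cell types loss of DNA methylation is known to release endogenous retroviral RNA that such sensors can detect. Treg cells are CD4+ T cells that restrain immune responses and are marked by the transcription factor Foxp3.

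In the chimera experiment, CD25-high Foxp3-YFP-positive Treg cells came from females of 8 weeks, with Uhrf1 fl/fl Foxp3 +/YFP-Cre alleles in chimeric knockouts (n = 4) and Uhrf1 +/+ Foxp3 YFP-Cre/YFP-Cre alleles in controls (n = 4). The sort kept YFP-positive cells, so Treg cells of the knockout mice that used the X chromosome without Cre were left out. In the pulse-chase experiment, Uhrf1 fl/fl mice (named iUhrf1 fl/fl, n = 6 libraries per population) and Uhrf1 +/+ controls (n = 5 per population) all carried Foxp3 GFP-CreERT2, a Cre made in Foxp3-expressing cells and active with tamoxifen, and a Rosa26 CAG-tdTomato reporter of its action. These mice of 8 weeks ate tamoxifen chow for 2 weeks and then standard chow for 4 weeks. From each mouse type, 3 populations were sorted. Labeled Treg cells had both colours, ex-Foxp3 cells had kept tdTomato but lost GFP, and post-tamoxifen Treg cells had GFP without tdTomato. Post-tamoxifen cells carry floxed alleles but no sign that Cre acted on the reporter. The design text calls the libraries of a group biological replicates and does not say whether libraries of the same number came from 1 mouse.

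Promoter sequence was the one property of the members read outside the counts, and it is shown first because the interferon response runs through it. RefSeq promoters of the GRCm38.p6 build, covering 250 bases before each start, were found for 29 of the 39 members, and 9 of these (31.0%) held the motif of ISGF3 targets, GAAA followed by any 2 bases and GAAA again, on either strand. Of the 7450 other genes tested in the pulse-chase libraries that had a promoter, 3.21% held it, as did 3.46% of all 27025 genes of the promoter table. Counted by promoter, the motif stood in 9 of 37 for the members (24.3%) and in 978 of 32851 for the whole table (2.98%). No other motif was searched, and a promoter with several overlapping matches counted once. The stretches below are those of members whose levels are described later. They run 5′ to 3′ along the gene's own strand, and capitals mark 1 match of the motif in each, which on the other strand reads TTTC, any 2 bases and TTTC. The promoter of Isg15 held 3 matches and those of Ifit1, Ifit3, Bst2 and Oas1a held 2, and further matches within a stretch are left in lower case:
Isg15 (chr4:156200840-156200909, minus strand): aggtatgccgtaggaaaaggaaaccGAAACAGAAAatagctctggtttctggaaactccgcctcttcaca
Ifit1 (chr19:34640779-34640848, plus strand): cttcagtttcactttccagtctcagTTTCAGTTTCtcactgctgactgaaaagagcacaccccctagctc
Ifit3 (chr19:34583382-34583451, plus strand): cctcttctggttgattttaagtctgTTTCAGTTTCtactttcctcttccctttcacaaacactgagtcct
Bst2 (chr8:71537552-71537621, minus strand): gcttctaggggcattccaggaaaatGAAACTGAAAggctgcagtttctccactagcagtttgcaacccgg
Oas1a (chr5:120907526-120907564, minus strand): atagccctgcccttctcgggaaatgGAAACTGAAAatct
Oas3 (chr5:120777690-120777759, minus strand): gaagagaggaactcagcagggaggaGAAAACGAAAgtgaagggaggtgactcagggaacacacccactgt
Stat2 (chr10:128270251-128270320, plus strand): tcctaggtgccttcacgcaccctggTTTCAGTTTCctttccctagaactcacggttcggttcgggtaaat
Rsad2 and Trim30a also held the motif. A match is a description of letters and does not show that a factor binds. The members' promoters were poor in CpG, the dinucleotide that carries DNA methylation: the median ratio of observed to expected CpG was 0.265 over the 29 members, 0.744 over the other tested genes and 0.378 over all genes of the promoter table.

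Libraries held 781437 to 5709702 counts. In the following, levels are CPM, the counts of a gene scaled to a common library total with TMM factors, differences are log2 fold changes of knockout or fl/fl over control ± SE, and a gene is called when edgeR's quasi-likelihood test gave a Benjamini-Hochberg adjusted p under 0.05 over all genes tested. Uhrf1, the targeted gene, was at 11.96, 8.66, 9.27 and 22.3 CPM in chimeric knockouts, against 32.5, 22.4, 23.4 and 22.3 CPM in controls. The library labelled chimeric knockout 4 thus stood at the level of the controls. Uhrf1 was called lower in the chimera (-0.95 ± 0.25, adjusted p = 0.0378) but not in labeled (-0.15 ± 0.60, adjusted p = 0.961) or ex-Foxp3 cells (-0.20 ± 0.68, adjusted p = 0.976), and in post-tamoxifen cells it was 1.62 ± 0.64, adjusted p = 0.113. The chimera call was lost without any single library except knockout 4 (adjusted p up to 0.162), and the post-tamoxifen difference of Uhrf1 was -0.094, adjusted p = 0.974, without fl/fl libraries 1 to 3. A count over the whole gene does not show whether floxed exons were lost, so the deletion in pulse-chase cells was not measured. Foxp3 was at most 113 CPM in ex-Foxp3 fl/fl and 151 CPM in ex-Foxp3 control libraries. Post-tamoxifen fl/fl library 3 and control library 2, sorted as GFP positive, lay at the same level, with 128 and 123 CPM, and the other post-tamoxifen libraries held 287 CPM or more. Post-tamoxifen fl/fl libraries 1 to 3 also held plasma cell markers (2 of 2 genes) that summed to 489, 135 and 138 CPM and plasmacytoid dendritic cell markers (3 of 3 genes) that summed to 135, 28.7 and 27.3 CPM. In the other post-tamoxifen libraries the plasma cell sum was at most 4.61 CPM in fl/fl and 19.5 CPM in control cells, and the plasmacytoid sum at most 0.853 CPM in fl/fl and 10.7 CPM in control cells, with Cd300c at 0 in all controls.

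The mean log2 CPM over the 39 members differed between genotypes by less than the SD among knockout or fl/fl libraries in every population. In ex-Foxp3 and post-tamoxifen cells the difference exceeded the SD among control libraries. The mean was 5.79 ± 0.22 in chimeric knockouts and 5.69 ± 0.14 in controls (SD, n = 4 each). In labeled cells it was 5.54 ± 0.24 in fl/fl and 5.40 ± 0.19 in control libraries, in ex-Foxp3 cells 5.63 ± 0.33 in fl/fl and 5.37 ± 0.13 in control libraries, and in post-tamoxifen cells 5.69 ± 0.20 in fl/fl and 5.52 ± 0.12 in control libraries (SD, n = 6 fl/fl and n = 5 control libraries each). The groups overlapped in all 4 comparisons. Fl/fl library 3 was the highest of its group in labeled cells (5.93, with 35 of 39 members above the group mean) and in ex-Foxp3 cells (6.14, 36 of 39), and fl/fl library 6 was the lowest in both (5.25 and 5.24). Among post-tamoxifen cells fl/fl library 4 was the highest (5.94) and library 2 the lowest (5.44).

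**Figure D1:**
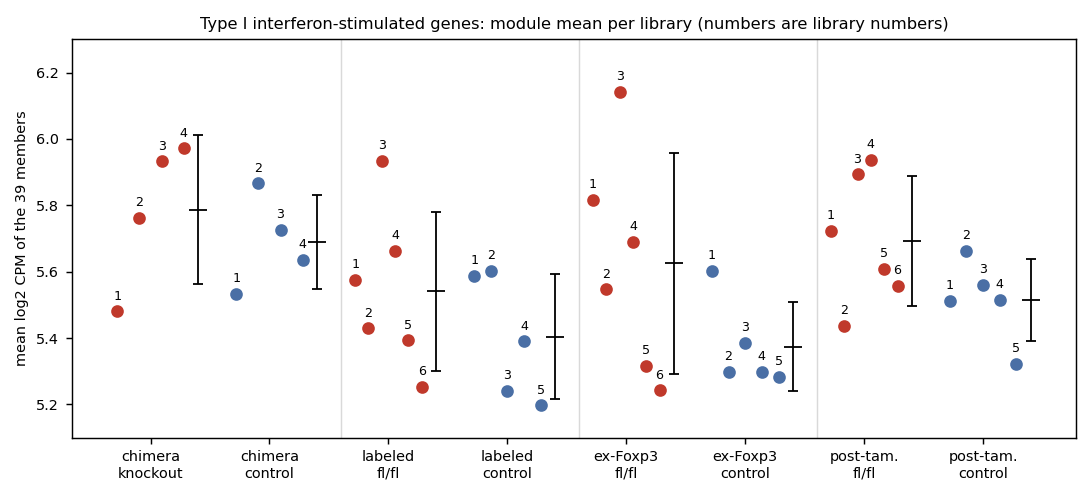
Mean log2 CPM of the 39 members in each library, by group, with the library number above each point and the group mean ± SD as a black bar beside the points. Fl/fl library 3 leads in labeled (5.93) and ex-Foxp3 cells (6.14), and knockout or fl/fl and control points overlap in every pair.

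Per kilobase of exon, the most abundant member in the pulse-chase libraries was Ifi27l2a, a small interferon-induced membrane protein, at a mean of 190.6 CPM per kilobase. Sp100, a nuclear body protein, followed at 83.4, Dtx3l, a ubiquitin ligase, at 61.4 and Samd9l, a growth-restricting antiviral factor, at 59.7 CPM per kilobase. The lowest were Oas2 at 1.49, Oasl1 at 1.04 and Ifi44 at 0.548 CPM per kilobase. Classical reporters of interferon were low in counts: the median library held 22 counts of Isg15, 27 of Ifit3, 20 of Rsad2 and 14 of Oas2, against 1526 of Sp100 and 1338 of Parp14. The SD of log2 CPM within pulse-chase groups ran from 0.13 for Sp100 and 0.14 for Parp14 to 0.91 for Oasl2 and 1.04 for Ifi44. The members that vary most are thus those with few counts, and counting error is part of that spread.

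Over the 33 pulse-chase libraries, with group means removed, the members differed in how closely they followed the mean of the other members. Pearson's r was 0.81 for Ifit1, 0.79 for Irf7, 0.75 for Ifi27l2a and 0.70 for Rtp4, a receptor transport protein. It was 0.0097 for Isg20, an exonuclease, 0.077 for Oasl1, 0.14 for Herc6 and 0.19 for Oas1a. The genes outside the list that followed it most closely were Irgm2 (0.81), Gm4955 (0.80), Pydc4 (0.80), Slfn1 (0.78) and Igtp (0.77). Irgm2 and Igtp encode interferon-inducible GTPases. The libraries carry the same numbers in 3 populations and differ in depth, so these values describe this set of samples only.

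**Figure D2:**
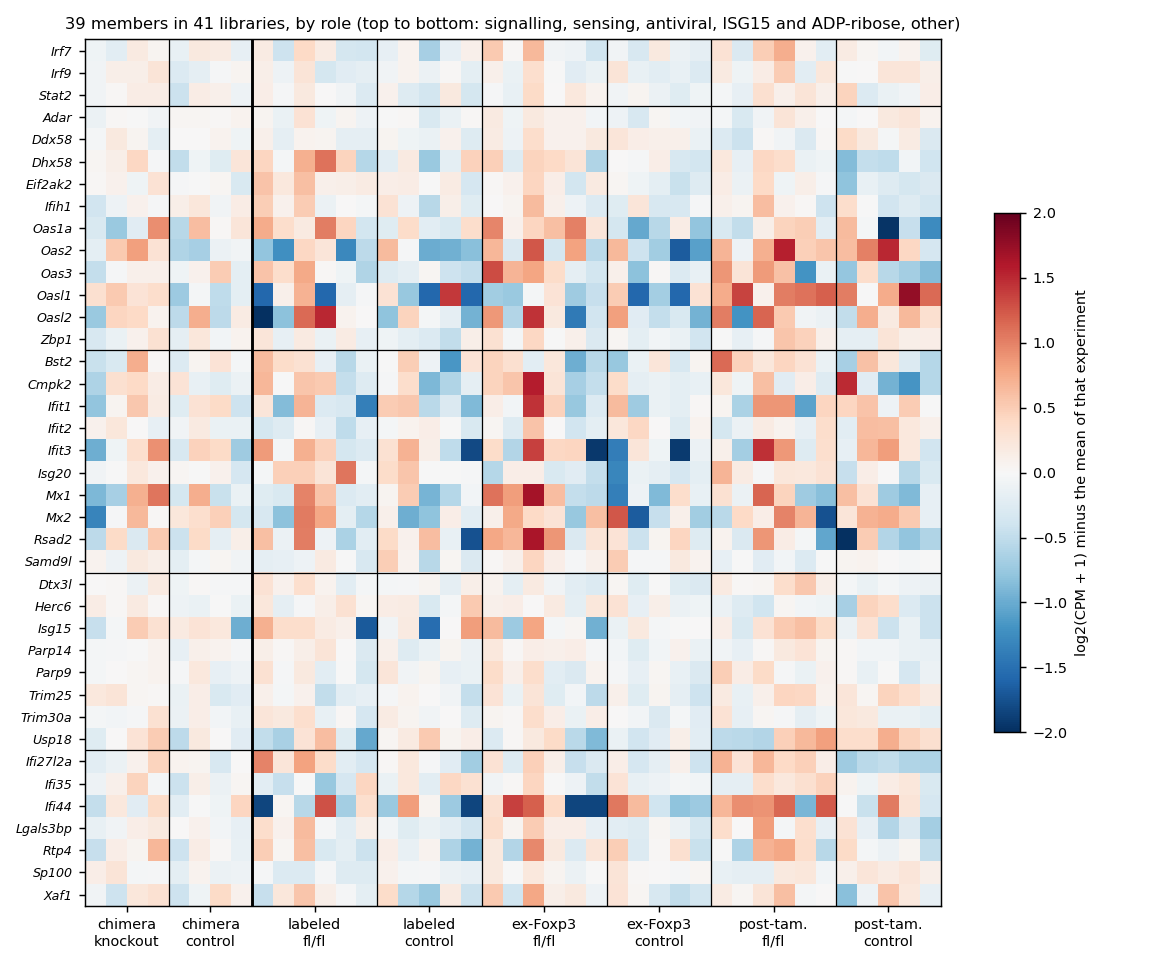
Level of each member (rows, by role) in each of the 41 libraries (columns, by group), as log2(CPM + 1) minus the gene's mean over that experiment, with colours limited at 2. The columns of fl/fl library 3 in labeled and ex-Foxp3 cells are red over most rows, and the rows of strongest colour, such as Ifi44, Oasl1 and Oasl2, are genes of few counts.

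In the chimera, no member was called between genotypes (0 of 39), where 2.41% of all 9569 genes tested were called. At an unadjusted p under 0.05, 5 members were higher and 0 lower, against 6.01% of all genes higher, and DESeq2 called 0. The median member difference was 0.098, that of all genes was 0.00085, and 31 of 39 members had a positive sign, against 50.2% of all genes. Without the library labelled chimeric knockout 4, the median was 0.013 and 21 members were positive, and without both knockout 4 and control 1 it was -0.014, of the opposite sign, with 18 positive. The other fits that left out 1 library gave medians of 0.060 (without control 4) to 0.17 (without knockout 1). For 35 members the 95% interval of the difference lay within 1 log2 unit of 0 on both sides.

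In labeled cells no member was called either (0 of 39, against 0.0101% of all 9921 genes), with 4 members higher and 0 lower at an unadjusted p under 0.05 (4.08% of all genes were higher) and 0 called by DESeq2. The median was 0.13, against 0.0029 over all genes, and 28 members were positive. Without labeled fl/fl library 3 it was 0.076 with 25 positive. In ex-Foxp3 cells 0 of 39 members were called (0.181% of all genes), 5 were higher and 0 lower at an unadjusted p under 0.05 (4.47% of all genes were higher), and DESeq2 called 0. Here the median was 0.20, against 0.0050 over all genes, and 34 members were positive. Without fl/fl library 3 it was 0.12 with 29 positive. The 95% intervals lay within 1 log2 unit of 0 for 28 members in labeled and 27 in ex-Foxp3 cells.

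Post-tamoxifen cells were the only population with called members. Ifi27l2a, Lgals3bp and Eif2ak2 were called higher in fl/fl cells, 3 of 39 members, where 7.23% of all 9921 genes were called and 3.9% were called higher. At an unadjusted p under 0.05, 8 members were higher and 2 lower, against 13.1% of all genes higher. DESeq2 called Ifi27l2a, Lgals3bp, Eif2ak2 and Dtx3l higher. The median was 0.17, against 0.0083 over all genes, and 26 members were positive. The share of members called was near that of all genes called in either direction. For 24 members the interval lay within 1 log2 unit of 0.

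Summed markers of dividing cells (5 of 5 genes) were 1618 to 3526 CPM in labeled and post-tamoxifen fl/fl libraries 1 to 3 and at most 418 CPM in libraries 4 to 6 of these groups. In labeled control cells they were 766 to 1278 CPM in libraries 1 to 3 and at most 221 CPM in libraries 4 and 5. Ex-Foxp3 control cells did not split in this way, with 145 CPM in library 1, 518 and 533 CPM in libraries 2 and 3, and 164 and 209 CPM in libraries 4 and 5. Medians were also taken within these number classes. In ex-Foxp3 cells the median was 0.31 over numbers 1 to 3 and 0.094 over the rest, in labeled cells 0.21 and 0.017, and in post-tamoxifen cells 0.052 and 0.30. The sign was positive in all 6, and the larger value fell in numbers 1 to 3 for both tdTomato-positive populations and in the others for post-tamoxifen cells. Within the classes, post-tamoxifen members were called in both directions: over numbers 1 to 3 Ifi27l2a (1.13, adjusted p = 0.000443) and Oas3 (0.86, adjusted p = 0.0335) were higher and Usp18 (-1.10, adjusted p = 0.0105) and Sp100 (-0.35, adjusted p = 0.0235) lower in fl/fl cells, and over the rest Ifi27l2a (0.96, adjusted p = 0.00564) and Dtx3l (0.46, adjusted p = 0.0313) were higher. The part of cell division in these values was not tested. With all libraries, 7.23% of all genes were called in post-tamoxifen cells, and the shares within the classes are not given here.

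**Figure D3:**
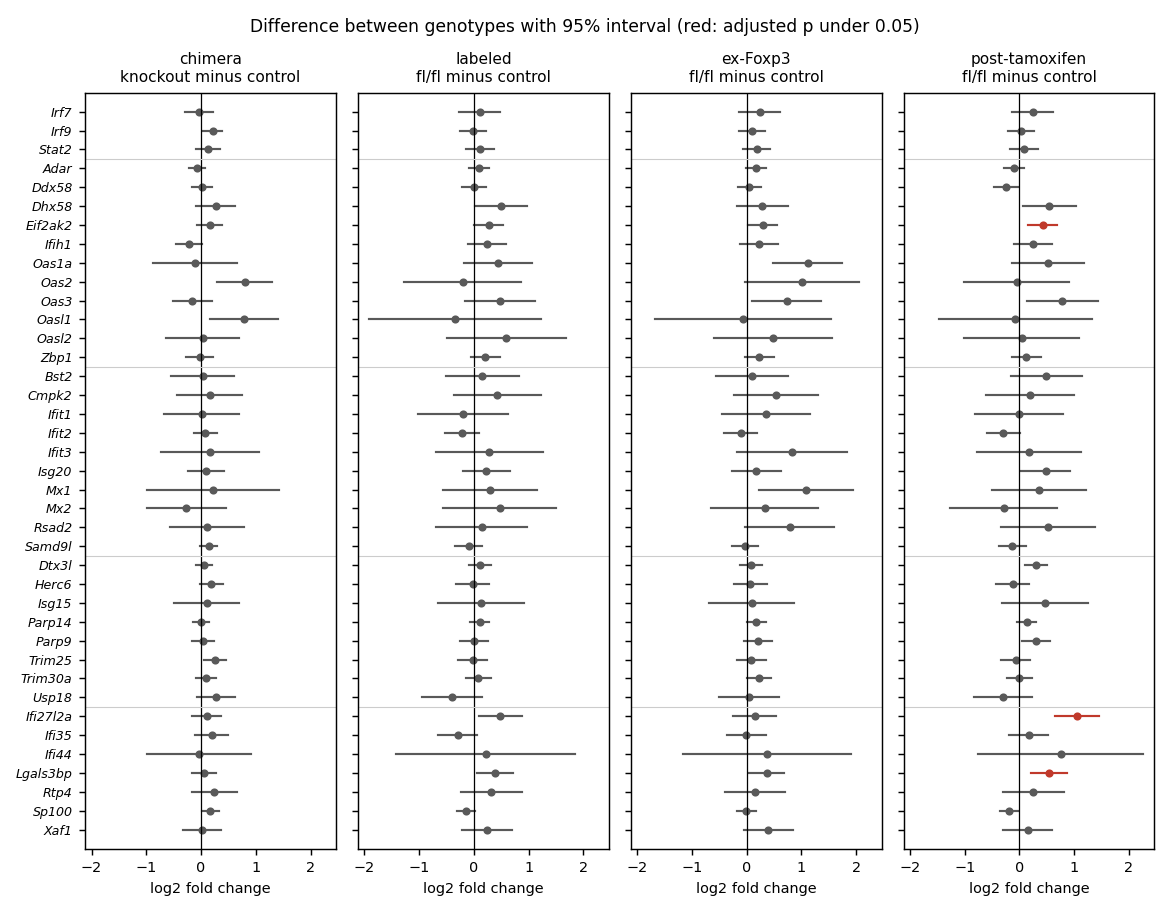
Log2 fold change of each member (rows, by role), knockout or fl/fl over control, with its 95% interval in the 4 genotype comparisons, and called members in red. Only Ifi27l2a, Lgals3bp and Eif2ak2 in post-tamoxifen cells are red, and intervals of members with few counts, such as Ifi44 and Oasl1, are wide.

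Differences were small in the 3 members that carry the interferon signal, and none was called. Irf7, the factor that amplifies the interferon response, was at 59.5, 54.6, 71.2 and 65.5 CPM in chimeric knockouts, against 56.97, 72.3, 71.2 and 56.4 CPM in chimera controls. It was at 45.4 to 80.1 with a median of 57.7 CPM in labeled fl/fl cells, against 53.97, 63.99, 37.9, 53.9 and 65.4 CPM in labeled control cells. In the population that lost Foxp3 it was at 45.7 to 95.8 with a median of 59.6 CPM in ex-Foxp3 fl/fl cells, against 57.9, 48.5, 69.9, 55.8 and 53.2 CPM in ex-Foxp3 control cells. Fl/fl library 3 gave the highest fl/fl value of Irf7 in labeled and ex-Foxp3 cells. Irf7 was at 49.5 to 102 with a median of 69.6 CPM in post-tamoxifen fl/fl cells, against 68.5, 62.1, 58.7, 63.6 and 51.3 CPM in post-tamoxifen control cells. These ranges overlapped in each pair, and the differences were -0.041, 0.10, 0.24 and 0.24 in chimera, labeled, ex-Foxp3 and post-tamoxifen cells (adjusted p of at least 0.463).

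Irf9, the DNA-binding part of ISGF3, was at 218, 248, 248 and 272 CPM in chimeric knockouts, against 188, 201, 226 and 238 CPM in chimera controls, with knockouts 2 to 4 above every control (0.21 ± 0.087, adjusted p = 0.246). In the pulse-chase populations the ranges overlapped. Irf9 was at 144 to 219 with a median of 166 CPM in labeled fl/fl cells, against 175, 193, 169, 187 and 159.6 CPM in labeled control cells (-0.014 ± 0.12, adjusted p = 0.980), at 157 to 233 with a median of 176 CPM in ex-Foxp3 fl/fl cells, against 219, 165, 158, 165 and 152 CPM in ex-Foxp3 control cells (0.10 ± 0.12, adjusted p = 0.895), and at 158 to 262 with a median of 205 CPM in post-tamoxifen fl/fl cells, against 183, 184, 218, 217 and 199 CPM in post-tamoxifen control cells (0.021 ± 0.12, adjusted p = 0.945).

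Stat2, the ISGF3 partner that carries the activation domain, was at 106, 114, 124 and 124 CPM in chimeric knockouts, against 82.7, 123, 119 and 104 CPM in chimera controls. The pulse-chase values of Stat2 were 83.7 to 116 with a median of 101 CPM in labeled fl/fl cells, against 108, 85.1, 78.95, 117 and 79.4 CPM in labeled control cells. They were 91.6 to 133 with a median of 105 CPM in ex-Foxp3 fl/fl cells, against 97.1, 106, 93.7, 86.00 and 96.01 CPM in ex-Foxp3 control cells, and 90.5 to 127 with a median of 109.5 CPM in post-tamoxifen fl/fl cells, against 139, 83.6, 92.8, 96.5 and 111 CPM in post-tamoxifen control cells. Every pair overlapped. Its differences ran from 0.085 in post-tamoxifen to 0.18 in ex-Foxp3 cells, and the highest upper 95% bound was 0.43. Irf7 and Irf9 overlap their neighbours Phrf1 and Rnf31, and with the strand setting of the counting not given, reads of these pairs cannot be told apart.

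Among the 11 sensors of viral nucleic acid and the enzymes they act with, 1 was called, Eif2ak2 (PKR, the kinase that stops translation on viral RNA) in post-tamoxifen cells. It was at 78.5 to 112 with a median of 87.9 CPM in post-tamoxifen fl/fl cells, against 48.2, 76.1, 70.6, 66.1 and 69.1 CPM in post-tamoxifen control cells, so that the groups did not overlap (0.42 ± 0.13, adjusted p = 0.0475). Such a gap above the controls was seen in 3 members there, Ifi27l2a and Dtx3l being the others, against 1.41% of all genes. Eif2ak2 had differences of 0.27 in labeled and 0.29 in ex-Foxp3 cells (adjusted p = 0.528 and 0.488) and of 0.16 in the chimera. The call was lost on leaving out any of 7 single libraries (control 1, 3, 4 or 5, or fl/fl 1, 3 or 5, adjusted p up to 0.136), and without fl/fl libraries 1 to 3 (0.33, adjusted p = 0.364).

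The oligoadenylate synthetases, which make the signal that turns on RNase L, and their relatives gave the largest genotype difference among the members in the chimera (Oas2), in labeled cells (Oasl2) and in ex-Foxp3 cells (Oas1a), none of them called. In ex-Foxp3 cells Oas1a, which shares sequence with the copies Oas1b to Oas1h and is uncertain for that reason, was at 17.9 to 34.9 with a median of 24.4 CPM in ex-Foxp3 fl/fl cells, against 12.9, 7.75, 11.1, 18.8 and 9.31 CPM in ex-Foxp3 control cells. Of the 6 fl/fl values, 5 lay above every control and the lowest above 4 of 5 controls (1.12 ± 0.31, adjusted p = 0.121). Compared with only these groups in the fit, Oas1a was called (adjusted p = 0.0164). Oas3 was at 32.2 to 104 with a median of 60.7 CPM in ex-Foxp3 fl/fl cells, against 45.1, 23.3, 42.6, 34.4 and 37.5 CPM in ex-Foxp3 control cells (0.73 ± 0.31, adjusted p = 0.432). The difference of Oas3 was 1.12, adjusted p = 0.0289 over numbers 1 to 3 and 0.18, adjusted p = 1 over the rest.

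In the chimera, Oas2 was at 13.02, 22.2, 27.4 and 18.8 CPM in chimeric knockouts, against 9.63, 9.19, 13.9 and 14.4 CPM in chimera controls, with 3 of 4 knockouts above every control, and was the member of smallest p (0.79 ± 0.25, adjusted p = 0.0871). Among the fits that left out 1 library it was called only without chimeric knockout 1 (adjusted p = 0.0431). Oasl1, a relative without synthetase activity that in mice restrains Irf7 translation, was at 11.4, 13.3, 10.95 and 11.6 CPM in chimeric knockouts, against 5.02, 8.66, 6.01 and 7.69 CPM in chimera controls (0.79 ± 0.30, adjusted p = 0.196). All 4 knockouts stood above all 4 controls in Oasl1, as they did in Herc6, the enzyme that in mice attaches Isg15 (0.19 ± 0.11, adjusted p = 0.461). This pattern was met by 3.42% of all genes. The pulse-chase libraries held Oasl1 at 0 to 9.03 CPM, and its 95% intervals there ran from -1.91 to 1.54.

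Oasl2 was at 1.37 to 28.4 with a median of 9.57 CPM in labeled fl/fl cells, against 4.91, 13.03, 9.02, 8.08 and 4.36 CPM in labeled control cells (0.59 ± 0.54, adjusted p = 0.797), with fl/fl values on both sides of the controls. It was at 2.87 to 27.2 with a median of 8.83 CPM in ex-Foxp3 fl/fl cells, against 17.2, 7.75, 6.39, 7.30 and 4.36 CPM in ex-Foxp3 control cells (0.48 ± 0.53, adjusted p = 0.893), and at 3.48 to 22.1 with a median of 11.3 CPM in post-tamoxifen fl/fl cells, against 6.34, 15.9, 10.7, 15.2 and 11.9 CPM in post-tamoxifen control cells (0.039 ± 0.52, adjusted p = 0.977). Oasl2 is a relative of the synthetases with ubiquitin-like domains, and its low counts left intervals of more than 1 log2 unit on the upper side in these populations. In the chimera Oasl2 was at 9.30, 22.2, 21.9 and 17.3 CPM in chimeric knockouts, against 11.03, 27.6, 11.1 and 18.5 CPM in chimera controls (0.026 ± 0.31, adjusted p = 0.985).

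The RNA helicase sensor Ifih1 (MDA5) was at 61.7, 75.1, 85.95 and 79.8 CPM in chimeric knockouts, against 87.9, 94.7, 76.9 and 89.4 CPM in chimera controls, a difference of -0.22 ± 0.12, adjusted p = 0.428. Its pulse-chase differences were positive. Ifih1 was at 71.00 to 109.6 with a median of 79.3 CPM in labeled fl/fl cells, against 93.98, 71.3, 51.9, 83.1 and 64.6 CPM in labeled control cells (0.25 ± 0.17, adjusted p = 0.712), at 63.3 to 119 with a median of 78.5 CPM in ex-Foxp3 fl/fl cells, against 64.4, 91.1, 61.3, 60.98 and 75.6 CPM in ex-Foxp3 control cells (0.22 ± 0.17, adjusted p = 0.817), and at 57.5 to 118 with a median of 80.4 CPM in post-tamoxifen fl/fl cells, against 97.6, 76.1, 58.7, 64.3 and 59.1 CPM in post-tamoxifen control cells (0.25 ± 0.17, adjusted p = 0.397). None of the 4 was called and every pair of groups overlapped. Dhx58 (LGP2), which modulates that sensor, was among the 3 members of smallest p in labeled cells, at 17.4 to 56.8 with a median of 35.9 CPM in labeled fl/fl cells, against 22.6, 29.9, 15.3, 22.7 and 36.6 CPM in labeled control cells (0.49 ± 0.23, adjusted p = 0.527). Zbp1, a sensor of Z-form nucleic acid, was at 128 to 207 with a median of 161 CPM in ex-Foxp3 fl/fl cells, against 161, 136, 151, 143 and 119 CPM in ex-Foxp3 control cells (0.23 ± 0.13, adjusted p = 0.648). It was at 138, 158, 182 and 214 CPM in chimeric knockouts, against 152, 202, 166 and 180.2 CPM in chimera controls (-0.024 ± 0.12, adjusted p = 0.961). The other 2 differences of Zbp1 were 0.21 in labeled and 0.13 in post-tamoxifen cells. Ddx58 (RIG-I) differed by 0.0094, 0.0034, 0.045 and -0.25 in the 4 comparisons, the last with an interval of -0.46 to -0.030 and an adjusted p of 0.145.

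None of the 10 antiviral effectors was called in any genotype comparison. Ifit1, which binds viral RNA that lacks a host cap mark, was at 30.8, 56.4, 79.2 and 60.5 CPM in chimeric knockouts, against 45.5, 66.4, 70.9 and 40.5 CPM in chimera controls, a difference of 0.0078 with an interval of -0.68 to 0.70. It was at 12.8 to 56.2 with a median of 27.9 CPM in labeled fl/fl cells, against 49.8, 50.6, 23.5, 28.1 and 18.3 CPM in labeled control cells (-0.19 ± 0.40, adjusted p = 0.916). Ifit1 was at 20.1 to 96.2 with a median of 35.7 CPM in ex-Foxp3 fl/fl cells, against 54.2, 20.7, 31.5, 30.2 and 35.2 CPM in ex-Foxp3 control cells, and fl/fl library 3 gave the highest value (0.35 ± 0.39, adjusted p = 0.898). The groups overlapped in these pairs. In the third pulse-chase population Ifit1 was at 15.9 to 64.6 with a median of 41.5 CPM in post-tamoxifen fl/fl cells, against 46.9, 51.7, 32.1, 49.5 and 34.3 CPM in post-tamoxifen control cells (-0.014 ± 0.39, adjusted p = 0.989).

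The close relative Ifit3 was at 1.54 to 23.8 with a median of 11.6 CPM in ex-Foxp3 fl/fl cells, against 2.68, 10.3, 8.09, 1.56 and 7.86 CPM in ex-Foxp3 control cells, the widest of its differences. It was at 6.56 to 16.5 with a median of 10.3 CPM in labeled fl/fl cells, against 10.9, 14.6, 9.47, 5.77 and 1.74 CPM in labeled control cells, and at 5.03 to 25.6 with a median of 10.3 CPM in post-tamoxifen fl/fl cells, against 7.61, 14.3, 16.3, 10.1 and 6.41 CPM in post-tamoxifen control cells. The groups overlapped in all pairs. For Ifit3 the differences were 0.16, 0.28, 0.82 and 0.17 in chimera, labeled, ex-Foxp3 and post-tamoxifen cells, with upper 95% bounds of 1.06 to 1.82. The counting of reads shared between Ifit1 and Ifit3 and their copies is uncertain.

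Mx1, a GTPase that blocks influenza virus replication, was among the 3 members of smallest p in ex-Foxp3 cells. It was at 12.3 to 59.6 with a median of 30.6 CPM in ex-Foxp3 fl/fl cells, against 6.44, 16.8, 9.37, 23.5 and 16.3 CPM in ex-Foxp3 control cells, with fl/fl libraries 1 to 4 above every control (1.08 ± 0.42, adjusted p = 0.347). Over numbers 1 to 3 the difference was 2.04, adjusted p = 0.0502, and over numbers 4 and above it was -0.14, adjusted p = 1, of the opposite sign. Bst2 (tetherin), which holds budding virus at the cell surface, was at 9.65 to 24.7 with a median of 14.02 CPM in post-tamoxifen fl/fl cells, against 6.34, 16.6, 12.7, 8.67 and 6.87 CPM in post-tamoxifen control cells (0.49 ± 0.32, adjusted p = 0.364) and differed by 0.027, 0.16 and 0.099 in chimera, labeled and ex-Foxp3 cells. Over the 10 effectors the median difference was 0.10 in the chimera, 0.19 in labeled, 0.34 in ex-Foxp3 and 0.18 in post-tamoxifen cells, with 9, 7, 8 and 6 positive.

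Isg15, the ubiquitin-like protein that is among the most strongly induced targets of interferon, was at 8.51, 11.8, 17.7 and 15.2 CPM in chimeric knockouts, against 13.8, 14.8, 14.2 and 5.64 CPM in chimera controls. It was at 1.94 to 14.4 with a median of 10.2 CPM in labeled fl/fl cells, against 7.93, 9.58, 2.26, 8.46 and 15.7 CPM in labeled control cells. It was at 3.84 to 15.2 with a median of 8.39 CPM in ex-Foxp3 fl/fl cells, against 7.51, 9.69, 8.09, 8.34 and 8.44 CPM in ex-Foxp3 control cells. The median library held few counts of it, so single values carry a large counting error. Isg15 was at 6.57 to 13.3 with a median of 10.8 CPM in post-tamoxifen fl/fl cells, against 7.61, 10.4, 5.95, 7.59 and 5.95 CPM in post-tamoxifen control cells, with 3 of 6 fl/fl libraries above every control. The groups overlapped in all 4 pairs, and the differences were 0.10, 0.13, 0.091 and 0.47 with 95% intervals of -0.49 to 0.70, -0.66 to 0.91, -0.68 to 0.86 and -0.31 to 1.26.

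The other 7 members of the Isg15, ubiquitin and ADP-ribose system were measured with more counts, and none was called. Trim25, the ubiquitin ligase that activates RIG-I, was at 186, 190.2, 163 and 162 CPM in chimeric knockouts, against 145, 176, 129 and 136 CPM in chimera controls (0.26 ± 0.097, adjusted p = 0.178) and differed by -0.070 to 0.082 in the pulse-chase populations. Dtx3l, the partner of Parp9, was at 353 to 505 with a median of 387 CPM in post-tamoxifen fl/fl cells, against 339.9, 317, 339, 325 and 320.5 CPM in post-tamoxifen control cells, where the groups did not overlap and the adjusted p was just above the threshold (0.30 ± 0.10, adjusted p = 0.0534); DESeq2 called it (adjusted p = 0.0263). Parp9 and Dtx3l share a start region in opposite directions and the row of Parp9 carries the identifier of Dtx3l, so their reads may be split uncertainly. Usp18, the protease that removes Isg15 and damps the receptor, differed by 0.27, -0.40, 0.040 and -0.30 in the 4 comparisons, with adjusted p of at least 0.517.

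Ifi27l2a gave the smallest adjusted p of any member in any genotype comparison. In post-tamoxifen cells the 6 fl/fl libraries held 137, 102, 134, 110.3, 117 and 92.3 CPM, against 50.7, 57.3, 59.1, 54.9 and 54.5 CPM in controls. All fl/fl values stood above all control values, and the controls lay close together. The mean was 115 ± 17.5 CPM in fl/fl (SD, n = 6) and 55.3 ± 3.17 CPM in control cells (SD, n = 5), and the difference was called (1.05 ± 0.20, 95% interval 0.64 to 1.45, adjusted p = 0.00177). It kept its size over numbers 1 to 3 (1.13, adjusted p = 0.000443) and over numbers 4 and above (0.96, adjusted p = 0.00564), and it stayed called without any single library (adjusted p of 0.000835 to 0.00742). Without fl/fl libraries 1 to 3, those with plasma cell and plasmacytoid dendritic cell markers, it was 0.93, adjusted p = 0.0811. Fl/fl libraries 4 to 6, with these markers near 0, held 110.3, 117 and 92.3 CPM. The part of other cells in the difference of Ifi27l2a was not tested.

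The same gene was at 66.3 to 169 with a median of 104 CPM in labeled fl/fl cells, against 84.9, 96.9, 82.6, 71.2 and 51.5 CPM in labeled control cells, with fl/fl libraries 1 and 3 the highest (0.48 ± 0.19, adjusted p = 0.441). It was at 60.8 to 118 with a median of 80.6 CPM in ex-Foxp3 fl/fl cells, against 91.7, 65.9, 74.1, 90.2 and 62.6 CPM in ex-Foxp3 control cells (0.15 ± 0.19, adjusted p = 0.917). In the chimera it was at 77.1, 81.5, 93.96 and 121 CPM in chimeric knockouts, against 93.5, 92.4, 70.9 and 89.4 CPM in chimera controls (0.099 ± 0.13, adjusted p = 0.819). The mean of post-tamoxifen control cells was the lowest of the 8 groups, and that of post-tamoxifen fl/fl cells was near the 110.2 ± 40.6 CPM of labeled fl/fl cells (SD, n = 6). Ifi27l2a has related neighbour genes, and the counting of reads they may share is uncertain.

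**Figure D4:**
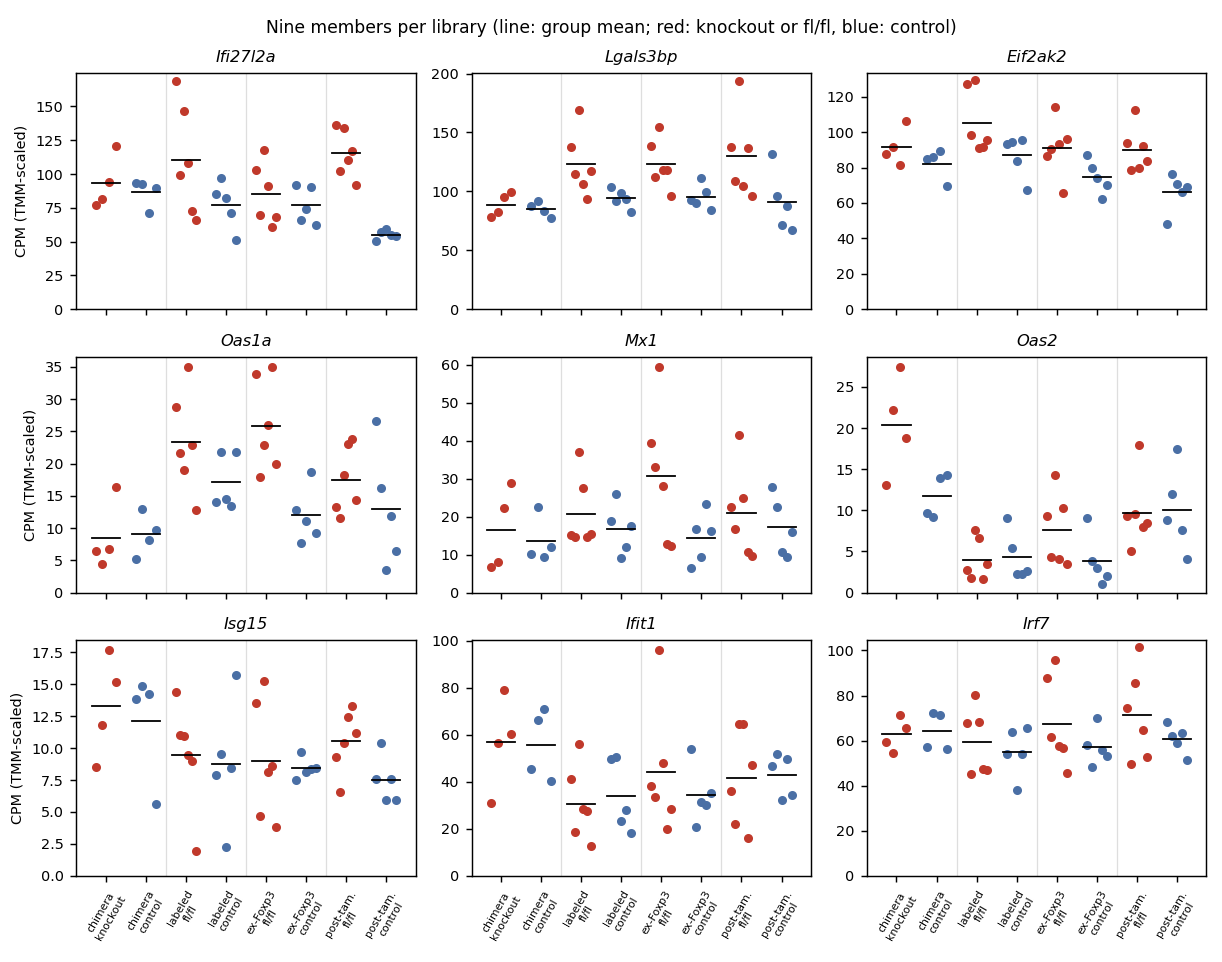
CPM of 9 members in every library by group, with a line at the group mean and a linear axis from 0. Ifi27l2a separates fl/fl (92.3 to 137 CPM) from control (50.7 to 59.1 CPM) post-tamoxifen cells, and the groups of Isg15, Ifit1 and Irf7 overlap in every pair.

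Lgals3bp, a secreted glycoprotein that binds galectins, was called higher, at 96.5 to 194 with a median of 123 CPM in post-tamoxifen fl/fl cells, against 132, 95.97, 71.8, 87.8 and 67.3 CPM in post-tamoxifen control cells (0.54 ± 0.16, adjusted p = 0.0363). The groups overlapped through control library 1. The call was lost without control 3, 4 or 5 or fl/fl 1 or 3 (adjusted p up to 0.135), and without fl/fl libraries 1 to 3 (0.33, adjusted p = 0.433). Lgals3bp was also at 93.5 to 169 with a median of 116 CPM in labeled fl/fl cells, against 104, 91.6, 98.8, 93.5 and 82.9 CPM in labeled control cells (0.38 ± 0.16, adjusted p = 0.473), and its difference in ex-Foxp3 cells was similar in size (0.36 ± 0.16, adjusted p = 0.463). Of the remaining members, Sp100 differed by 0.17, -0.14, -0.0062 and -0.20 in the 4 comparisons and Xaf1, a pro-apoptotic factor, by 0.018, 0.24, 0.39 and 0.15, none of them called.

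Markers of other cells and states were summed for the same libraries. Summed myeloid markers (7 of 7 genes) overlapped widely in post-tamoxifen cells, at 76.1 to 735 CPM in fl/fl and 16.8 to 498 CPM in control libraries. Naive T cell markers (4 of 4 genes) of post-tamoxifen cells summed to 1226 to 2358 CPM in fl/fl and 2578 to 2931 CPM in control libraries, which did not overlap, and effector markers (5 of 5 genes) to 683 to 1589 CPM in fl/fl and 310 to 841 CPM in control libraries. In ex-Foxp3 cells the naive sum was 1905 to 2204 CPM in fl/fl and 2382 to 2933 CPM in control libraries, and the effector sum 1363 to 1482 CPM in fl/fl and 756 to 1149 CPM in control libraries. In labeled cells the naive sum was 1046 to 1492 CPM in fl/fl and 1490 to 1687 CPM in control libraries, and the effector sum 1419 to 1904 CPM in fl/fl and 947 to 1209 CPM in control libraries. The chimera went the other way, with a naive sum of 2265 to 3072 CPM in knockouts and 1956 to 2214 CPM in controls, and an effector sum of 236 to 487 CPM in knockouts and 499 to 655 CPM in controls. Chimera controls 3 and 4 held summed B cell markers (5 of 5 genes) of 66.5 and 70.7 CPM, and the other chimera libraries at most 12.5 CPM. Dividing-cell markers summed to 405 and 352 CPM in these controls and to at most 220 CPM in the other chimera libraries. The part of such cells and states in the higher Ifi27l2a, Lgals3bp and Eif2ak2, and in the differences of the other comparisons, was not tested. In bulk samples fewer cells of a type and less RNA per cell cannot be told apart.

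Whether the genotype difference itself differed between populations was tested by interaction. No member was called for labeled against post-tamoxifen cells (0 of 39, against 0.0202% of all genes), for ex-Foxp3 against post-tamoxifen cells (0 of 39, against 0.0504%) or for ex-Foxp3 against labeled cells (0 of 39, against 0.0%), and DESeq2 called 0 in each. At an unadjusted p under 0.05 there were 0 higher and 1 lower, 1 higher and 1 lower, and 0 members in these 3 tests. Of all genes, 7.73%, 9.79% and 2.38% were at that level in either direction. Ifi27l2a had the largest negative values, -0.57 ± 0.28, adjusted p = 0.640 for labeled and -0.90 ± 0.28, adjusted p = 0.287 for ex-Foxp3 cells, each against post-tamoxifen cells. With the replicate number as a block, Ifi27l2a was called for ex-Foxp3 against post-tamoxifen cells (-0.91, adjusted p = 0.0111), where 100 of all 9921 genes were called. Same-numbered libraries deviated together in the fl/fl pairs of that test and not in every control pair. Over the members the median interaction was -0.059 for labeled against post-tamoxifen, 0.10 for ex-Foxp3 against post-tamoxifen and 0.10 for ex-Foxp3 against labeled cells. The first was positive without labeled fl/fl 2 (0.0046) or 6 (0.042), and without ex-Foxp3 fl/fl 3 the second was -0.011 and the third 0.0014. Over numbers 1 to 3 the medians were 0.15, 0.30 and 0.11 in the same order, and over the rest -0.21, -0.12 and 0.079, the first 2 changing sign between the classes.

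Between populations of 1 genotype few members passed the test. Ex-Foxp3 cells, which have lost Foxp3, differed from labeled cells in 0 of 39 members in fl/fl mice (4.09% of all genes called) and 0 of 39 in controls (0.353%). At an unadjusted p under 0.05, 1 member was higher and 1 lower in fl/fl mice, against 18.0% of all genes in either direction. In controls 0 were higher and 1 lower at that level, against 9.60% of all genes. DESeq2 called 2 in fl/fl and 0 in control mice. Same-numbered libraries deviated together in these fits. With the number as a block the fl/fl count was 2, where 893 of all 9921 genes were called. Isg20 fell (-0.63, adjusted p = 0.0456) and Sp100 rose (0.25, adjusted p = 0.0229). Isg20 was at 13.96 to 23.3 with a median of 17.6 CPM in ex-Foxp3 fl/fl cells and at 20.5 to 45.5 with a median of 27.8 CPM in labeled fl/fl cells, and Sp100 at 579 to 727 with a median of 637 CPM in ex-Foxp3 fl/fl cells and at 517 to 615 with a median of 522 CPM in labeled fl/fl cells. The groups overlapped for both.

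Labeled cells differed from post-tamoxifen cells in 0 of 39 members in fl/fl mice (4.58% of all genes) and 0 of 39 in controls (7.93%), and DESeq2 called 0 in each. At an unadjusted p under 0.05, 0 members were higher and 4 lower in fl/fl mice, against 16.6% of all genes in either direction. In controls 2 were higher and 4 lower at that level, against 20.1% of all genes. With the block, Oas2 was called lower in labeled fl/fl cells (-1.37, adjusted p = 0.0415), where 805 of all 9921 genes were called. In control cells the block called 5 members, Oas2 among them (-1.38, adjusted p = 0.0452), where 1280 of all genes were called. Oas2 was at 1.64 to 7.63 with a median of 3.12 CPM in labeled fl/fl cells, against 5.03 to 18.00 with a median of 8.91 CPM in post-tamoxifen fl/fl cells. Ex-Foxp3 against post-tamoxifen fl/fl cells gave 2 of 39 calls, where 15.2% of all genes were called. Dtx3l was lower in ex-Foxp3 fl/fl cells (-0.29 ± 0.094, adjusted p = 0.0319), at 289 to 397 with a median of 318 CPM in ex-Foxp3 fl/fl cells, against 353 to 505 with a median of 387 CPM in post-tamoxifen fl/fl cells. Ddx58 was higher (0.29 ± 0.10, adjusted p = 0.0434), at 145 to 199 with a median of 169 CPM in ex-Foxp3 fl/fl cells, against 115 to 158 with a median of 138 CPM in post-tamoxifen fl/fl cells. The groups overlapped for both genes. The Dtx3l call was lost without ex-Foxp3 fl/fl 2, 5 or 6 or post-tamoxifen fl/fl 4 or 5 (adjusted p up to 0.0881), and the Ddx58 call without ex-Foxp3 fl/fl 1, 3, 4, 5 or 6 or post-tamoxifen fl/fl 1, 2, 4 or 5 (adjusted p up to 0.157). With the number as a block 4 members were called, where 2063 of all 9921 genes were called. Ifi27l2a (-0.46, adjusted p = 0.00400) and Samd9l (0.25, adjusted p = 0.0468) were the added members. In controls ex-Foxp3 and post-tamoxifen cells differed in 0 of 39 members (5.33% of all genes called), and DESeq2 called 0. At an unadjusted p under 0.05, 1 member was higher and 5 lower there, against 15.5% of all genes in either direction. With the block 3 members were called in these controls, where 878 of all 9921 genes were called. Ifi27l2a was higher (0.45, adjusted p = 0.0282), and Oas2 (-1.59, adjusted p = 0.0264) and Trim25 (-0.39, adjusted p = 0.0233) were lower in ex-Foxp3 cells.

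Upstream of the module, the receptor and its kinases were present in every library and were not called in any genotype comparison. In ex-Foxp3 cells the receptor chain Ifnar1 was at 141 to 187 with a median of 177 CPM in ex-Foxp3 fl/fl cells, against 227, 207, 222, 188 and 205 CPM in ex-Foxp3 control cells, all fl/fl values lying below all control values (-0.29 ± 0.11, adjusted p = 0.320), as in 1.21% of all genes. Ifnar2 differed by -0.27 there (adjusted p = 0.457). Jak1 differed by 0.12 in the chimera to -0.18 in post-tamoxifen cells, Tyk2 by -0.32 in the chimera to 0.24 in labeled cells, and Irf1, a factor induced by both kinds of interferon, by -0.054 in ex-Foxp3 to 0.15 in post-tamoxifen cells. In ex-Foxp3 cells all fl/fl values of Jak1 also lay below all control values, the pattern of 1.21% of all genes. They were 1055 to 1143 CPM in fl/fl and 1165 to 1241 CPM in control cells.

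Of the 13 receptor and signalling genes outside the members, all tested, 1 was called in the chimera, against 2.41% of all genes. This was Irf5, a factor downstream of nucleic acid receptors. It was at 13.3, 5.55, 13.1 and 16.4 CPM in chimeric knockouts, against 23.3, 19.97, 21.8 and 25.6 CPM in chimera controls (-0.93 ± 0.25, adjusted p = 0.0387), a call lost without any single library except knockout 4 (adjusted p up to 0.177) and not made by DESeq2 (adjusted p = 0.0764). In post-tamoxifen cells 1 was called, against 7.23% of all genes. This was Irf8, a factor of dendritic and B cells, at 185, 81.9, 82.4, 36.9, 44.2 and 42.1 CPM in fl/fl libraries 1 to 6, against 49.5, 28.3, 41.7, 35.4 and 44.4 CPM in controls (0.998 ± 0.30, adjusted p = 0.0395). The high values were those of libraries 1 to 3, and without them the difference of Irf8 was 0.062, adjusted p = 0.950. These libraries carry the plasmacytoid dendritic markers. They also held more plasma cell, B cell, myeloid and dividing-cell markers than fl/fl libraries 4 to 6. These traits cannot be told apart here, and their part in the Irf8 difference was not tested. The Irf8 call was also lost without control 2, 3, 4 or 5 or without fl/fl 1, 2 or 3 alone (adjusted p up to 0.148). Socs3, a feedback inhibitor of cytokine receptors, was among the 3 genes of smallest p from these lists in the chimera, labeled and ex-Foxp3 comparisons, with differences of 0.50 in the chimera, 0.80 in labeled and 0.94 in ex-Foxp3 cells (adjusted p = 0.0839, 0.498 and 0.317). In the chimera Socs3 was called higher by DESeq2 (adjusted p = 0.0361) and by edgeR without a count filter (adjusted p = 8.54e-05) or without knockout 2 (adjusted p = 0.000919), and over numbers 1 to 3 it was called higher in labeled (0.82, adjusted p = 0.0100) and ex-Foxp3 cells (0.71, adjusted p = 0.0200).

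Of the 14 tested sensors and adaptors outside the members, 0 were called in the chimera (13 tested), labeled or ex-Foxp3 cells. In post-tamoxifen cells the kinase Ikbke was called lower (-0.52 ± 0.14, adjusted p = 0.0178) and the RNase H2 subunit Rnaseh2b higher (0.70 ± 0.23, adjusted p = 0.0497). Of all genes, 7.23% were called there. The Ikbke call was lost without control 3 or 4 or fl/fl 1, 2 or 3 (adjusted p up to 0.0658), and the Rnaseh2b call without control 2, 3, 4 or 5 or fl/fl 1, 2 or 3 (adjusted p up to 0.164). Of 20 tested targets of interferon gamma, the type II interferon (19 in the chimera), 0 were called in the chimera, labeled or ex-Foxp3 cells and 3 in post-tamoxifen cells, all guanylate-binding proteins. Of all genes, 2.41%, 0.0101%, 0.181% and 7.23% were called in these comparisons, in the same order. Gbp3 was at 115 to 216 with a median of 173 CPM in post-tamoxifen fl/fl cells, against 76.1, 94.02, 65.1, 54.6 and 61.4 CPM in post-tamoxifen control cells (1.30 ± 0.14, adjusted p = 8.54e-08), with no overlap between groups, and Gbp2 (0.75 ± 0.15, adjusted p = 0.00177) and Gbp7 (0.54 ± 0.12, adjusted p = 0.00411) were also higher. The median over the 20 targets was 0.25 in post-tamoxifen, 0.10 in ex-Foxp3 and 0.17 in labeled cells. Over all genes it was 0.0083, 0.0050 and 0.0029 in the same order.

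The interferon genes themselves were almost absent. The 15 ligand genes of the table other than Ifng (Ifna genes, Ifnab, Ifnb1, Ifne and Ifnk) gathered 38 counts over all 41 libraries, with at most 5 counts of a gene in a library, and were found in 15 libraries. Ifnb1 had 1 count in all. Ifng, the type II ligand that T cells make, had 699 counts, found in 39 libraries. At this depth a difference in type I ligand transcripts between genotypes was not detectable.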

How the data were processed

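RNA-seq of sorted Treg cells was deposited by the authors as 1 table of raw counts per gene for 41 libraries. Per the labels' protocols, RNA came from the AllPrep DNA/RNA Micro kit and libraries from the SMARTer Stranded Total RNA-Seq kit v2. Per the submitters' processing notes, bcl2fastq 2.17.1.14, TopHat2 2.1.0 and the builds mm10 and GRCm38 were used, and the annotation and strand setting of the counting are not given in the sources used here. Genes were taken by symbol, since 6 members carry an identifier that differs from the GENCODE annotation of that symbol. Reads of overlapping genes and of near-identical copies (Oas1a, Ifit1, Ifit3, Trim30a, Ifi27l2a) may have been split uncertainly.

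Counts were scaled by TMM and tested with edgeR 4.0.16 (R 4.3.3, quasi-likelihood test, robust, low counts removed by filterByExpr), with the 8 chimera libraries (9569 genes) and the 33 pulse-chase libraries in 6 groups (9921 genes) in separate fits. P-values were adjusted by Benjamini-Hochberg over all genes of a fit, with a threshold of 0.05. Log2 CPM used a prior count of 2. P-values set a difference against the spread between libraries of a group. The main fits held no term for the replicate number, so same-numbered libraries of different populations were treated as independent. Libraries of 1 group always differed beyond counting error (chi-square over its degrees of freedom of at least 2.57). Totals of 781437 to 5709702 counts limit the members of few counts. DESeq2 1.42.0, other scalings and filters, libraries left out and number classes were alternatives, and the 2 that leave out post-tamoxifen libraries by their markers were chosen after seeing the data. Members called by DESeq2, within number classes or with libraries left out are given without the share of all genes called in those fits. The script was tested on simulated data.

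Whether equal numbers pair libraries was checked by the correlation of deviations from group means. All same-numbered pairs exceeded 0.1 for ex-Foxp3 against labeled cells (0.144 to 0.360 in fl/fl, 0.138 to 0.303 in control cells) and for labeled (0.244 to 0.438) and ex-Foxp3 (0.127 to 0.393) against post-tamoxifen fl/fl cells.

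Members and gene lists were chosen with earlier results of these data known. Values are given for members called between genotypes, for the 3 members of smallest p in each genotype comparison, and for 10 members set by role. Promoters came from RefSeq (GRCm38.p6). Values of 1 gene of the pathway lists are not reported here.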

Additional observations from a re-analysis of the deposited data

Results flagged for a closer look

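Gbp3, a guanylate-binding protein on the list of interferon gamma targets and not a member, was the 1 listed gene whose genotype difference itself differed between populations. Its difference of fl/fl over control was 0.24 in labeled, 0.15 in ex-Foxp3 and 1.30 in post-tamoxifen cells. In edgeR's quasi-likelihood test of the interaction, the labeled difference minus the post-tamoxifen difference was -1.06 ± 0.19, adjusted p = 0.0140, and the ex-Foxp3 difference minus the post-tamoxifen difference was -1.15 ± 0.19, adjusted p = 0.00365. Gbp3 was at 115 to 216 with a median of 173 CPM in post-tamoxifen fl/fl cells, against 76.1, 94.0, 65.1, 54.6 and 61.4 CPM in post-tamoxifen control cells. It was at 146 to 209 with a median of 167 CPM in labeled fl/fl cells, against 131, 159.8, 157, 128 and 153 CPM in labeled control cells, and at 87.6 to 118 with a median of 95.9 CPM in ex-Foxp3 fl/fl cells, against 78.8, 88.5, 102, 92.3 and 84.7 CPM in ex-Foxp3 control cells. The labeled interaction was not called without post-tamoxifen control 3 or 4 (adjusted p of 0.0559 and 0.0838) or without post-tamoxifen fl/fl libraries 1 to 3 (-0.94, adjusted p = 0.131), and the ex-Foxp3 interaction was not called without these 3 libraries (-1.04, adjusted p = 0.0996). No library stood apart from its group in the 32 group summaries checked, which covered the mean over the members and single members but not Gbp3.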

How the results depend on the processing

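Counts of called members were 0 in the chimera, labeled and ex-Foxp3 genotype comparisons and 3 in post-tamoxifen cells. Counts and medians were recomputed under the alternatives. A count was held the same when equal or within 1.5-fold. A median was held the same, whatever its sign, when it shifted by less than the pooled SD within groups of the mean over the members. By this rule 533 results stayed the same and 41 moved, and some that stayed had changed in count or sign. With the replicate number as a block the counts were 1 in labeled cells (Ifi27l2a), 2 in ex-Foxp3 cells (Oas1a and Oas3) and 7 in post-tamoxifen cells. Of all 9921 genes, 149, 229 and 1650 were then called in these 3 comparisons. The block also gave 5 members for labeled and 3 for ex-Foxp3 against post-tamoxifen control cells (1280 and 878 of all genes). It gave 0 in the chimera (176 of 9569 genes). In none of these comparisons did every same-numbered pair of libraries have a correlation above 0.1. The count was 1 in the ex-Foxp3 interaction (Ifi27l2a, against 100 of all genes), whose fl/fl libraries are paired by number. Where numbers pair libraries, the block gave 2 for ex-Foxp3 against labeled fl/fl cells (893 of all genes). It gave 1 for labeled and 4 for ex-Foxp3 against post-tamoxifen fl/fl cells (805 and 2063 of all genes), and changed no other member count in the paired fits. With only the compared groups in the fit, 1 member was called in ex-Foxp3 cells (137 of 9156 genes) and 1 in post-tamoxifen cells (147 of 9337 genes). For ex-Foxp3 against post-tamoxifen fl/fl cells it was 0 (1046 of 9212 genes). Numbers 1 to 3 alone gave 1 in ex-Foxp3 cells and 4 in post-tamoxifen cells, 2 higher and 2 lower, and the other numbers 2 in post-tamoxifen cells. In post-tamoxifen cells 1 was called without control numbers 2 and 3, 0 without fl/fl libraries 1 to 3 and 1 without fl/fl library 3 and control library 2. In the main fits 0.181% of all genes were called in ex-Foxp3 and 7.23% in post-tamoxifen cells. DESeq2 called 2 for ex-Foxp3 against labeled and 1 for ex-Foxp3 against post-tamoxifen fl/fl cells, where RLE factors, upper-quartile factors and no count filter each gave 1. RLE factors, upper-quartile factors and no count filter then called 1485 of 9921, 1480 of 9921 and 1397 of 15161 genes. The median ex-Foxp3 interaction was -0.12 over numbers 4 and above, the label interaction 0.15 over numbers 1 to 3, and the chimera median -0.014 without knockout 4 and control 1. Leaving out 1 library gave 0 to 1 calls in the chimera, 1 to 4 in post-tamoxifen cells, 0 to 1 for ex-Foxp3 against labeled fl/fl cells, 0 to 1 for labeled against post-tamoxifen control cells, 0 to 2 for ex-Foxp3 against post-tamoxifen fl/fl cells and 0 to 1 for ex-Foxp3 against post-tamoxifen control cells. In the main fits 2.41%, 7.23%, 4.09%, 7.93%, 15.2% and 5.33% of all genes were called in these comparisons, in the same order. Among single genes signs turned for Mx1 in ex-Foxp3 cells over numbers 4 and above (-0.14) and for Uhrf1. The Uhrf1 difference in labeled cells was 0.011 with the block, 0.027 over numbers 1 to 3, 0.23 over the others, 0.64 without control numbers 2 and 3, and -0.41 to 0.28 on leaving out 1 library. In ex-Foxp3 cells Uhrf1 was at 0.0037 with the block, 0.17 over numbers 4 and above, 0.050 without control numbers 2 and 3, and -0.40 to 0.076 on leaving out 1 library, and in post-tamoxifen cells it was -0.094 without fl/fl libraries 1 to 3. The cause was not tested. For single genes, 665 recomputed values kept direction and side of the threshold, 109 lost the call, 18 gained it and 14 reversed. Depth limits members of few counts, among them Isg15, Rsad2, Oas2, Oasl1 and Ifi44, whose intervals exceed 1 log2 unit in at least 1 comparison. Of the 39 members, intervals lay within 1 log2 unit of 0 for 35 in the chimera, 28 in labeled, 27 in ex-Foxp3 and 24 in post-tamoxifen cells.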
